A study of Mus musculus with 6 samples.

Results

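The wall of brain vessels and the membranes around the brain were followed through 48 genes, chosen as a list of endothelial, mural, basement membrane and meningeal fibroblast genes and found by symbol among the 55604 genes of the count tables. All 48 were present. The 3 4-AP samples came from the brains of C57BL/6 mice given 4-aminopyridine (4-AP) intraperitoneally, a blocker of voltage-gated potassium channels used to bring on status epilepticus, a prolonged seizure state. The 3 controls came from untreated C57BL/6 mice, with no vehicle injection named. Dose, sampling time, age, sex and brain region are not stated in the labels. All 6 RNA samples had been digested with RNase R, an exonuclease that removes linear RNA and spares circles, so each count combines the linear RNA left over with any circular RNA of the gene.

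Endothelial cells of the brain form the blood-brain barrier. Tight junctions seal the gaps between them, and transporters carry glucose, amino acids and lipids across them while efflux pumps return foreign molecules to the blood. Pericytes and smooth muscle cells, together called mural cells, wrap the endothelium, share a basement membrane of collagen IV and laminin with it, and are attracted by endothelial PDGF-B acting on the receptor encoded by Pdgfrb. Fibroblasts of the meninges and of larger vessels deposit fibrillar collagen outside this layer. Seizures are known to make the barrier leakier.

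The members carried few reads. Total counts were 1507882 to 2721287 in the 4-AP libraries and 2355610 to 3409055 in the controls, and the 48 genes together took 0.114 to 0.158% of counts in 4-AP and 0.123 to 0.182% in control libraries. The median member had 25, 55 and 20 counts across the 4-AP group, against 55.5, 59 and 30.5 in the controls. Values below are counts per 1e+06 scaled counts (CPM), and log2 fold changes are 4-AP minus control. One gene, Lars2, took 12.4 to 21.4% of counts in 4-AP and 3.82 to 12.1% in control libraries, a share that enters any scaling by total counts. In RNA from brain tissue, whose region is not stated, fewer cells of a type and less RNA per cell cannot be told apart.

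No member passed the test. Of the 48 genes, 46 had enough counts for edgeR's quasi-likelihood test, and with a threshold of 0.05 on the adjusted p, 0 members were called higher and 0 lower. Over all 11388 tested genes 0.843% were called, 0.334% higher and 0.509% lower. Limma-voom also called 0 members, and so did DESeq2 among the 14 members to which it gave an adjusted p, leaving 32 as NA. The smallest adjusted p of a member was 0.123, for the glucose transporter gene Slc2a1. At an unadjusted p under 0.05 there were 4 members, or 8.7% of those tested, a smaller share than the 13.9% of all tested genes. They were Slc2a1, below the controls, and Egfl7, Col3a1 and Dcn, above them, where 7.57% of all tested genes were lower and 6.29% higher at that level. Which share was smaller depended on the setting. Without control replicate 2 it was 17.4% of members and 11.8% of all tested genes, and in DESeq2 6.25% and 4.95%. Without 4-AP replicate 2 it was 8.70% and 14.2%. The 3 4-AP libraries lay wholly on one side of the 3 controls in 6 members (13%), compared with 18.8% of all tested genes. In 4 members the 4-AP libraries were the higher ones and in 2 the lower ones, beside 8.36% and 10.4% of all tested genes. The members' median log2 fold change was -0.09, beside -0.01 for all tested genes.

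**Figure D1:**
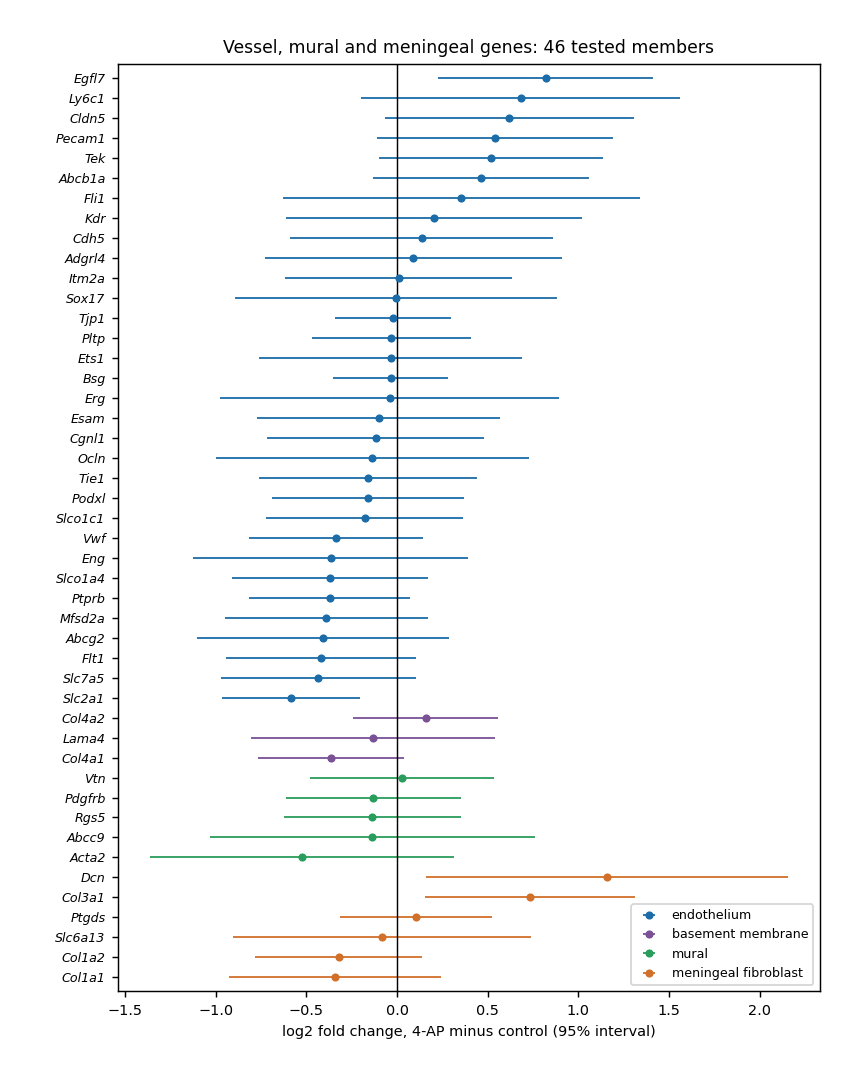
Log2 fold change of each tested member, 4-AP minus control, on the horizontal axis, with its 95% interval from the edgeR fit (n = 3 libraries per group); genes run down the page by class and by size of the estimate. The intervals of Egfl7, Slc2a1, Dcn and Col3a1 leave out 0 and the other 42 include it; 0 of the 46 passed after adjustment over all genes.

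The intervals say what these counts could show. For 31 of the 46 tested members the 95% interval of the log2 fold change stayed within a 2-fold change in either direction. For 40 of them it still reached a 1.5-fold change in at least 1 direction, so those intervals leave room for a change of that size. The narrowest intervals belonged to 2 genes that many brain cells express. Tjp1, the scaffold protein ZO-1 of tight junctions, had an interval of -0.34 to 0.30, and Bsg, encoding the surface glycoprotein basigin, one of -0.35 to 0.28.

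The barrier's tight junctions were led by Cldn5, the claudin that seals brain endothelium. Cldn5 had 14.3, 18.6 and 10.96 CPM in 4-AP libraries, against 8.17, 12.97 and 7.59 CPM in controls. The groups overlapped, since control replicate 2 lay above 4-AP replicate 3, and the log2 fold change of 0.62 (SE 0.33; adjusted p 0.432 in edgeR) did not pass. The other 3 junction genes lay just below 0, namely Ocln, encoding the junction protein occludin, at -0.14, Tjp1 at -0.02 and the junction adaptor gene Cgnl1 at -0.12. Ocln was counted thinly, with 8 to 18 counts in the 4-AP and 19 to 33 in the control libraries.

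Adhesion molecules and receptors pointed both ways, 6 of the 11 above 0 and 5 below. Egfl7, which encodes a protein that endothelial cells secrete into their matrix, had 16.3, 22.9 and 21.2 CPM in 4-AP libraries, against 11.9, 13.5 and 8.48 CPM in controls. Every 4-AP library lay above every control. Its log2 fold change was 0.82 (SE 0.29), with an unadjusted p of 0.0093 and an adjusted p of 0.170 by edgeR's test. In fits without 1 of the libraries, the unadjusted p stayed under 0.05 in 6 of 6 fits and the estimate ranged from 0.67 to 0.99. With scaling by total counts it was 0.61 and the unadjusted p 0.0716.

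Egfl7, on chromosome 2 (chr2:26580014-26593120, plus strand, mm10), is the host gene of miR-126, a microRNA known for its abundance in endothelium. Its mature 3p strand is shown because an Egfl7 count can include reads from the host transcript that carries it. The sequence comes from RefSeq (GRCm38.p6, chr2:26591402-26591423, plus strand), with the seed, bases 2 to 8, in capitals.
mmu-miR-126a-3p: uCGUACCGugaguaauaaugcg
The hairpin genes Mir126a and Mir126b themselves had 0 counts in each of the 6 libraries, but they share exonic bases with Egfl7. Whether the counter dropped reads there was not tested. Neither the Egfl7 value nor these 0 counts give a measure of the mature microRNA. Of the exonic bases of Egfl7, 11.2% are shared with other annotated genes, and the counting did not state a strand.

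Tek, the angiopoietin receptor TIE2, had 15.6, 19.7 and 14.6 CPM in 4-AP libraries, against 12.3, 14.01 and 8.48 CPM in controls. The groups did not overlap, but the gap between the lowest 4-AP and the highest control library was small, and the log2 fold change was 0.52 (SE 0.30; adjusted p 0.478 in edgeR). Its relative Tie1, an orphan receptor that modulates TIE2, lay at -0.16. Pecam1, the adhesion molecule CD31, had 16.95, 18.6 and 13.9 CPM in 4-AP libraries, against 12.6, 14.3 and 6.69 CPM in controls. Its groups overlapped by 1 pair of libraries, with a log2 difference of 0.54 (SE 0.31).

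Cdh5, the VE-cadherin of adherens junctions, had 6.52, 14.7 and 10.2 CPM in 4-AP libraries, against 9.43, 10.4 and 9.82 CPM in controls. The 4-AP libraries straddled the controls, and the log2 fold change was 0.14 (SE 0.35). Among the genes that share vascular endothelial growth factor as a ligand, Flt1, encoding VEGF receptor 1, lay at -0.42 and Kdr, encoding VEGF receptor 2, at 0.20. Ptprb, the endothelial phosphatase that acts on TIE2, had 44.3, 49.7 and 32.9 CPM in 4-AP libraries, against 60.3, 63.0 and 41.9 CPM in controls. The groups overlapped, control replicate 3 lying among the 4-AP libraries, and the log2 fold change was -0.37 (SE 0.21; adjusted p 0.480 in edgeR). Esam lay at -0.10, the TGF-beta co-receptor gene Eng at -0.37 and the adhesion receptor gene Adgrl4 at 0.09.

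Most transport genes had an estimate below 0. Of 8, 7 had a negative log2 fold change, where 51% of all tested genes did, with a median of -0.38 beside -0.01 for all tested genes, and 7 of 8 were also negative under each other scaling tried. Without control replicate 2 it was 5 of 8, with a median of -0.24. None passed the test. Slc2a1, the glucose transporter GLUT1 that carries glucose over the barrier and is also made by astrocytes, had 50.85, 69.7 and 57.0 CPM in 4-AP libraries, against 102.8, 84.0 and 82.1 CPM in controls. Each 4-AP library was below each control. The mean was 59.2 ± 9.60 CPM in 4-AP and 89.6 ± 11.4 CPM in control brain (SD, n = 3 each), which is -0.59 on the log2 scale (SE 0.18; unadjusted p = 0.0042, adjusted p 0.123 in edgeR).

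In the 6 fits that left out 1 library, Slc2a1 ranged from -0.71 to -0.47, with an unadjusted p under 0.05 in each and an adjusted p of 0.0840 or more. Its adjusted p was closest to the threshold with scaling by total counts, at 0.0524. Summed levels of astrocyte endfoot and neuronal markers were also lower in 4-AP, the endfoot sum largely through 1 gene, Slc1a2. The 9 endfoot markers, with 0 at 0 throughout, summed to 1784 to 2143 CPM in 4-AP and 2508 to 2587 CPM in controls. The 7 neuronal markers, with 0 at 0 throughout, summed to 2224 to 2822 CPM in 4-AP and 3173 to 3420 CPM in controls. Of these 7, 5 (71.4%) were wholly lower in 4-AP, beside 10.4% of all tested genes. Slc17a7, the vesicular glutamate transporter, was called (log2 -0.79, adjusted p 0.0142 in edgeR). Of 9 hypothalamus and thalamus markers, 6 were tested and 3 called higher, the peptide genes Oxt, Avp and Trh. Trh had 18.6 to 22.8 CPM in 4-AP and 0.446 to 2.59 CPM in control libraries. Hcrt and Pmch, too sparse to test, were also higher in each 4-AP library than in each control. Pomc lay at -0.603, and Pomc, Agrp, Prkcd and Rgs16 overlapped between groups. The sum of the 9 genes also overlapped, at 67.8 to 144.7 CPM in 4-AP and 12.05 to 88.95 CPM in control libraries. The part of these lists in the values of Slc2a1 and the other transport genes was not tested. Slc1a2, the astrocyte glutamate transporter, had a mean of 1132 CPM in 4-AP and 1748 CPM in control libraries. It was the 1 endfoot marker called (log2 -0.63, adjusted p 0.0328 in edgeR). Of the 9, 5 lay above 0 and 4 below. Aldh1l1, at -0.28, was also lower in each 4-AP library than in each control.

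Slc7a5, encoding the amino acid transporter LAT1, had 28.7, 25.4 and 38.0 CPM in 4-AP libraries, against 52.5, 25.7 and 45.1 CPM in controls. The groups overlapped through control replicate 2, and the log2 fold change was -0.43 (SE 0.26). Mfsd2a, the carrier of lysophospholipids into the brain, had 15.6, 14.7 and 11.7 CPM in 4-AP libraries, against 17.9, 19.97 and 17.4 CPM in controls. All 3 4-AP libraries were below all 3 controls, with a log2 difference of -0.39 (SE 0.27; adjusted p 0.571 in edgeR). The organic anion transporter genes Slco1a4 and Slco1c1, which lie close together on chromosome 6, were at -0.37 and -0.18. The efflux pump gene Abcg2 was at -0.41 and Bsg at -0.03 (SE 0.15).

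Abcb1a, encoding the efflux pump P-glycoprotein, was the 1 transport gene above 0. It had 17.6, 32.2 and 16.1 CPM in 4-AP libraries, against 17.3, 19.2 and 12.5 CPM in controls. Its log2 fold change of 0.46 (SE 0.29) had 1 high library behind it, 4-AP replicate 2, while the other 4-AP libraries lay within the range of the controls. Abcb1a has a close paralogue, Abcb1b, and 10.1% of its exonic bases overlap other genes, so its count is uncertain.

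Among 4 transcription factors of the endothelial program, 3 estimates were close to 0 and that of Fli1 was larger, though within 1 SE of 0. Sox17 lay at -0.01, the ETS-family genes Erg at -0.04, Ets1 at -0.03 and Fli1 at 0.35, with standard errors of 0.35 to 0.47. Fli1 and Ets1 are neighbours on chromosome 9. Of the remaining endothelial genes Ly6c1, a surface antigen of vessels with near-identical relatives that can split its reads, was at 0.68 (SE 0.42). Itm2a was at 0.01, the phospholipid transfer protein gene Pltp, 19.3% of whose exonic bases overlap Ctsa, at -0.03, the sialomucin gene Podxl at -0.16 and Vwf, the von Willebrand factor, at -0.34.

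**Figure D2:**
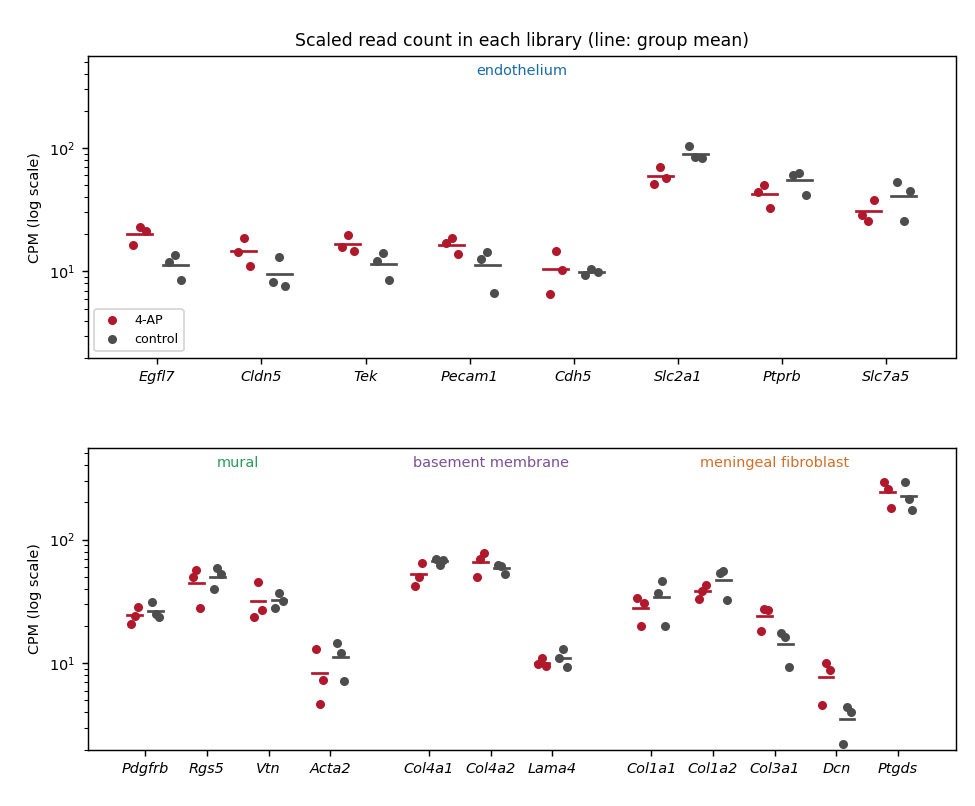
CPM on a log scale for members chosen by rank of p within their class or as defining genes of it; each point is 1 library and each line a group mean (n = 3 per group, 4-AP left of control). Egfl7, Tek, Col3a1 and Dcn have all 4-AP points above the control points and Slc2a1 has all below, while those of the other genes overlap.

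Mural genes showed no member at an unadjusted p under 0.05. Pdgfrb, the pericyte receptor for PDGF-B, had 20.9, 23.9 and 28.5 CPM in 4-AP libraries, against 31.1, 24.9 and 23.7 CPM in controls. The ranges overlapped, 2 of the 3 controls lying among the 4-AP libraries, with a log2 difference of -0.13 (SE 0.23). Rgs5, a regulator of G protein signalling typical of pericytes, had 49.5, 57.2 and 27.8 CPM in 4-AP libraries, against 39.6, 58.6 and 52.7 CPM in controls. Only 4-AP replicate 3 lay outside the range of the controls, and the log2 fold change was -0.14 (SE 0.23).

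Acta2, the smooth muscle actin of arterioles, had 13.04, 4.65 and 7.31 CPM in 4-AP libraries, against 14.5, 12.2 and 7.14 CPM in controls. Its log2 fold change of -0.52 had an SE of 0.40 and an interval of -1.36 to 0.31. Vtn, the vitronectin that pericytes secrete, had 23.5, 45.4 and 27.0 CPM in 4-AP libraries, against 27.97, 37.1 and 31.7 CPM in controls, with the 4-AP libraries on both sides of the controls. The log2 fold change of Vtn was 0.03 (SE 0.24).

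The subunits of the pericyte ATP-sensitive potassium channel are encoded side by side on chromosome 6. Abcc9, its sulfonylurea receptor, lay at -0.14 (SE 0.43). Kcnj8, its pore, had 0, 8 and 6 counts in 4-AP libraries and 9, 1 and 3 in controls, too few to test. A count of 0 in 4-AP replicate 1 allows up to 1.96 CPM (3 counts, counting error only). Tagln, the smooth muscle protein transgelin, had 0 counts in all 3 4-AP libraries, against 0, 1 and 0 in controls, and gives no comparison. Of its 1988 exonic bases, 67.9% are shared with 2 other annotated genes, Pcsk7 and Gm48529. Whether the counter dropped reads there was not tested, so the 0 is not read as absence of the RNA.

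The basement membrane genes include the collagen IV chains, Col4a1 and Col4a2, which assemble into 1 protein and are transcribed in opposite directions from adjoining starts on chromosome 8. Col4a1 had 42.4, 49.7 and 65.1 CPM in 4-AP libraries, against 70.1, 62.5 and 68.7 CPM in controls. Only 4-AP replicate 3 reached the range of the controls, and the log2 fold change was -0.36 (SE 0.19; adjusted p 0.426 in edgeR). Col4a2 had 50.2, 69.3 and 77.5 CPM in 4-AP libraries, against 61.9, 61.5 and 52.7 CPM in controls. The control range lay inside that of the 4-AP libraries, and the log2 fold change was 0.16 (SE 0.19). Lama4, the laminin chain of vessels, had 9.78, 11.1 and 9.50 CPM in 4-AP libraries, against 11, 12.97 and 9.37 CPM in controls, at -0.13 (SE 0.32).

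The stretch between the Col4a1 and Col4a2 start sites is printed to show how close they lie. RefSeq places the Col4a2 start at 11312805 on the plus strand and the Col4a1 start at 11312826 on the minus strand (GRCm38.p6), so both transcripts begin within the same 22 bases, given here on the plus strand (chr8:11312805-11312826).
Col4a1 and Col4a2 starts: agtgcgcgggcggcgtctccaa
The exons of the pair overlap there, over 0.295% of the exonic bases of Col4a1. Within a library, a ratio of 2 genes does not depend on the scaling. The ratio of Col4a2 to Col4a1 counts was 1.18, 1.40 and 1.19 in 4-AP, against 0.883, 0.983 and 0.766 in control libraries. The 4-AP ratios were above 1 and the control ratios below it.

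Meningeal fibroblast genes divided by gene. Col3a1, the chain of collagen III, had 18.3, 27.5 and 27.0 CPM in 4-AP libraries, against 17.6, 16.3 and 9.37 CPM in controls. Each 4-AP library was above each control, though 4-AP replicate 1 only just. The log2 fold change was 0.73 (SE 0.28; unadjusted p = 0.0158, adjusted p 0.218 in edgeR). The unadjusted p was over 0.05 in 2 of 6 such refits, without 4-AP replicate 2 and without control replicate 3, where the estimate was 0.64 and 0.53. Dcn, the small proteoglycan decorin that binds collagen fibrils, had 4.56, 10.01 and 8.77 CPM in 4-AP libraries, against 2.20, 4.41 and 4.02 CPM in controls.

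For Dcn these were 7, 28 and 12 counts in 4-AP, against 7, 17 and 9 in controls. Its groups did not overlap, by a narrow margin between 4-AP replicate 1 and control replicate 2, and the log2 fold change of 1.16 had an SE of 0.48 (unadjusted p = 0.0252, adjusted p 0.271 in edgeR). The unadjusted p was under 0.05 in 3 of 6 such refits, and over it without 4-AP replicate 2, 4-AP replicate 3 or control replicate 1. With scaling by total counts neither gene was under 0.05 unadjusted, Dcn being at 0.97 and Col3a1 at 0.52.

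The collagen I chains lay on the other side of 0. Col1a1 had 33.9, 20.01 and 30.7 CPM in 4-AP libraries, against 37.1, 45.9 and 20.1 CPM in controls, at -0.34 (SE 0.28). Col1a2 had 33.2, 38.2 and 43.1 CPM in 4-AP libraries, against 53.4, 55.8 and 32.6 CPM in controls, at -0.32 (SE 0.22). In both genes control replicate 3 was low and the other controls were high, so that the groups overlapped. The ratio of Col3a1 to Col1a2 counts was 0.549, 0.720 and 0.627 in 4-AP libraries, against 0.329, 0.293 and 0.288 in controls, with no overlap. The ratio of Col1a1 to Col1a2 was 1.02, 0.523 and 0.712 in 4-AP libraries, against 0.694, 0.823 and 0.616 in controls, and overlapped.

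**Figure D3:**
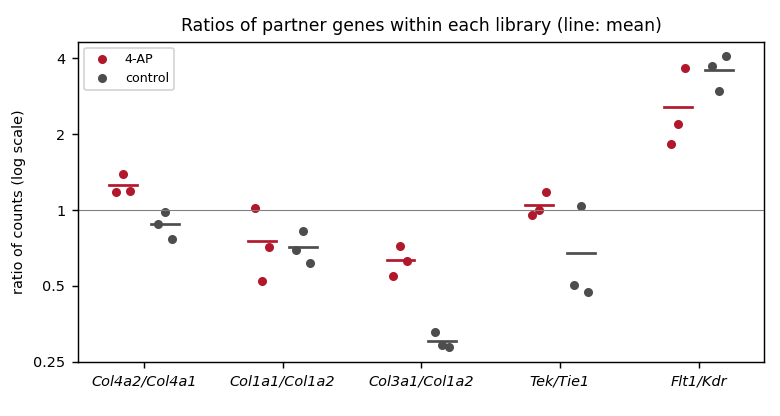
Ratio of the counts of partner genes within each library, on a log scale; points are libraries and lines group means (n = 3 per group, 4-AP left of control), and the grey line marks equal counts. Col4a2/Col4a1 and Col3a1/Col1a2 lie higher in all 3 4-AP libraries than in all 3 controls, and the other 3 ratios overlap.

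The 5 partner ratios were chosen after the values were seen and are descriptions with no test. Of the 5, 2 did not overlap between groups. The ratio of Tek to Tie1 was 0.960, 1.0 and 1.18 in 4-AP libraries, against 0.506, 1.04 and 0.475 in controls. The ratio of Flt1 to Kdr was 1.82, 2.18 and 3.67 in 4-AP libraries, against 3.73, 2.98 and 4.08 in controls.

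Ptgds, the prostaglandin D synthase abundant in meninges and also made by choroid plexus and oligodendrocytes, had 291, 259 and 180 CPM in 4-AP libraries, against 293, 215 and 173 CPM in controls. The ranges nearly coincided, with a log2 difference of 0.10 (SE 0.20). Slc6a13, the GABA transporter GAT2 of the leptomeninges, lay at -0.08 (SE 0.40). Of 8 choroid plexus markers, 2 had enough counts to test and 0 were called, Ttr at 4.27 (SE 1.51) and Clic6 at 1.68 (SE 0.51). The 8 genes summed to 17.6, 88.97 and 46.05 CPM in 4-AP libraries, against 11, 3.63 and 14.3 CPM in controls. Ttr had 8, 154 and 10 counts in 4-AP libraries, against 4, 0 and 7 in controls. Ttr, Clic6 and Prlr were higher in every 4-AP library than in every control, while Kl, Folr1, Aqp1, Kcne2 and Otx2 overlapped. Kcne2 was at 0 in all libraries but 4-AP replicate 2. The part of the choroid plexus genes in the values of Ptgds, Col3a1 and Dcn was not tested.

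Set side by side, the classes differed little. The median log2 fold change was -0.04 in endothelium (32 of 32 genes tested), -0.14 in mural genes (5 of 7), -0.13 in basement membrane (3 of 3) and 0.01 in meningeal fibroblast genes (6 of 6). With scaling by total counts, which moved the median of all genes to -0.22, these medians were -0.25, -0.34, -0.34 and -0.22. Without members that other brain cells also express, the endothelial median was -0.10 and the fibroblast median -0.08. Without 4-AP replicate 2 the mural median was -0.32, and leaving out single libraries moved the fibroblast median between -0.14 and 0.24. The members' spread was widest in the fibroblast class, from -0.34 to 1.16.

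**Figure D4:**
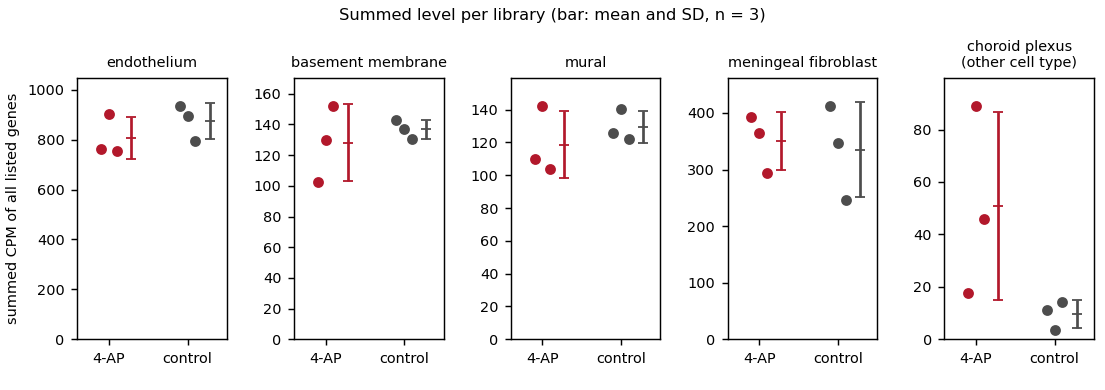
Summed CPM of all genes of each class and of 8 choroid plexus markers; points are libraries and the bar is the mean with its SD (n = 3 per group, 4-AP left of control). The 4 classes overlap between groups and the choroid plexus sums do not.

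Summed over all its genes, endothelium had 764, 902 and 753 CPM in 4-AP libraries, against 935, 893 and 795 CPM in controls. Mural genes summed to 110, 142 and 104 CPM in 4-AP libraries, against 126, 140 and 122 CPM in controls. Fibroblast genes other than Ptgds summed to 101, 105 and 113 CPM in 4-AP libraries, against 120, 132 and 73.2 CPM in controls. The groups overlapped in each class. In 4-AP brain, replicate 2 was the highest library for endothelial and mural sums, and control replicate 3 was the lowest control in every class.

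Levels per kilobase of exon are of RNA after RNase R digestion and do not rank the genes in undigested brain. Among the members Ptgds was highest, at 148 CPM per kilobase in 4-AP and 137 in control brain, followed by Bsg at 74.4 and 76.1. Slc2a1 came next in the controls, with 16.9 CPM per kilobase in 4-AP and 25.6 in control brain. Tjp1 was at 17.1 and 17.4 and Vtn at 15.75 and 15.9, in 4-AP and control brain. The defining endothelial genes were lower, with Cldn5 at 10.3 CPM per kilobase in 4-AP and 6.76 in control brain and Cdh5 at 2.49 and 2.35. The lowest tested member in controls was Dcn, at 1.33 CPM per kilobase in 4-AP and 0.607 in control brain. The defining markers of endothelium, pericytes and fibroblasts were thus all counted in every library, Tagln and Kcnj8 being the exceptions.

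Other genes of vessel signalling and barrier control were read from a list of 48 ligands, receptors and regulators outside the members. Of the 33 tested, 0 were called in either direction, and the median log2 fold change was -0.14. By edgeR's test 3 (9.09%) had an unadjusted p under 0.05, a smaller share than the 13.9% of all tested genes. Nrp2, a semaphorin and VEGF co-receptor that neurons also express, had 76.9, 60.4 and 68.0 CPM in 4-AP libraries, against 40.9, 47.7 and 37.9 CPM in controls. All 4-AP libraries lay above the controls, at a log2 difference of 0.68 (SE 0.19; adjusted p 0.0863 in edgeR). Cav1, the caveolin of endothelial vesicles, was at 0.99 (SE 0.44), Tgfb2 at -1.25 (SE 0.49) and Robo4, an endothelial guidance receptor, at -0.72 (SE 0.41). The ligand genes Vegfa and Pdgfb were at -0.09 and -0.33.

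Genes of endothelial activation and leakage could hardly be measured. Of 16, 3 had enough counts to test and 0 were called: Nos3, the endothelial nitric oxide synthase, at -0.64 (SE 0.48), Vcam1 at -0.15 and Hif1a at 0.09. The leukocyte adhesion genes Sele and Selp and the chemokine gene Ccl2 had 0 counts in each library. Among those too sparse to test, the adhesion gene Icam1 had 0, 0 and 3 counts in 4-AP, against 12, 10 and 9 in controls. The protease inhibitor gene Timp1 had 0 in every 4-AP library, against 3, 4 and 1 in controls. Both were lower in all 3 4-AP libraries, also in CPM, and were named after their values were seen. Of 6 further mural genes tested, 0 were called, with Myl9, a smooth muscle myosin light chain, at -0.67 (SE 0.41) and Cspg4, the proteoglycan NG2, at 0.27. Of 7 further fibroblast and leptomeningeal genes tested, 0 were called. Fn1, fibronectin, had 46.3, 38.2 and 27.0 CPM in 4-AP libraries, against 60.7, 58.4 and 54.0 CPM in controls. The groups did not overlap, at a log2 difference of -0.63 (SE 0.21; adjusted p 0.148 in edgeR), and Aldh1a2, a retinoic acid synthesis gene of the meninges, was at 1.18 (SE 0.68).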

How the data were processed

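Gene-level read counts from 3 4-AP and 3 control libraries of RNase R-treated mouse brain RNA were used as the authors deposited them. The submitters' processing notes name STAR 2.5.3a, featureCounts and the mm10 build. Which annotation, strand setting and multi-mapping rule were used is not given in the sources used here. Nothing in the labels says that samples came from separate animals, so p-values measure the spread between these samples. Of 55604 identifiers, 54809 matched GENCODE M21 without the version; coordinates are 1-based on mm10.

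Low-count genes were dropped with filterByExpr (10 counts at least, 15 in total), TMM scaling was applied, and the whole table was tested with edgeR 4.0.16 in R 4.3.3 (quasi-likelihood, robust, group only; Benjamini-Hochberg over all tested genes, threshold 0.05). SE was taken from the fold change and F. CPM are counts over scaled library size times 1e+06. Levels per kilobase use the union of exons. DESeq2 1.42.0 and limma-voom 3.58.1 were alternatives. The procedure was tested on simulated counts. Per-library values are given for members ranked by p within their class (3 per direction in endothelium, 2 elsewhere) and for defining genes; some others were named after seeing their values. The members and lists were chosen with earlier results of these data known.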

Additional observations from a re-analysis of the deposited data

How the results depend on the processing

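No member was called in any of the 18 alternatives; in DESeq2 this covers the 14 members with an adjusted p, the other 32 being NA. The smallest adjusted p of a member ran from 0.0524 (total counts only) to 0.335 (without 4-AP replicate 3). When 1 library was left out, 3 to 8 members had an unadjusted p under 0.05. These were 6.52% to 17.4% of tested members, beside 10.4% to 14.2% of all tested genes. The design text calls the tissues paired without saying by what. Deviations of same-numbered libraries correlated at -0.00189 to 0.113 across genes. With 3 libraries per group, these values cannot settle whether the replicate numbers mark pairs. With the replicate block 0 members were called, the smallest adjusted p was 0.0859, and over all genes 112 were higher and 153 lower, against 38 and 58 without it. Other counts over all genes that differed by more than 1.5 times were 121 higher and 169 lower at an adjusted p under 0.1, 78 and 129 with DESeq2, 131 and 197 with no filter, 25 and 30 with no robust fit, 293 lower with total counts only and 91 lower with Lars2 also left out (an alternative added after seeing the data). Leaving out 1 library gave 16 to 105 higher and 10 to 54 lower genes. Scaling by total counts moved the endothelial median to -0.25 and the mural median to -0.34; leaving out 1 library moved the mural median between -0.32 and -0.040 and the endothelial median between -0.14 and -0.005. The cause was not tested.

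Estimates close to 0 changed sign in 24 uncalled members, and 22 members kept their sign in every setting. With total counts only, the log2 fold change was -0.0543 for Cdh5, -0.0086 for Kdr, -0.10 for Adgrl4, -0.19 for Itm2a, -0.048 for Col4a2, -0.16 for Vtn and -0.13 for Ptgds, and with Lars2 also left out -0.030 for Itm2a and -0.00769 for Vtn. With no filter it was -0.019 for Itm2a and -0.00286 for Vtn, and with the replicate block -0.00491 and -0.027. Tjp1 was at 0.00474 with upper quartile scaling, and Sox17 at 0.013 with relative log expression, 0.023 with upper quartile scaling and 0.028 with DESeq2. When 1 library was left out, the ranges that crossed 0 were -0.41 to 0.083 for Ocln, -0.073 to 0.075 for Tjp1, -0.51 to 0.12 for Cgnl1, -0.22 to 0.37 for Cdh5, -0.32 to 0.063 for Esam, -0.14 to 0.50 for Kdr, -0.34 to 0.10 for Tie1, -0.12 to 0.25 for Adgrl4, -0.43 to 0.035 for Slco1c1, -0.085 to 0.085 for Bsg, -0.63 to 0.30 for Sox17, -0.16 to 0.19 for Erg, -0.17 to 0.25 for Ets1, -0.19 to 0.13 for Itm2a, -0.13 to 0.089 for Pltp, -0.35 to 0.020 for Podxl, -0.23 to 0.014 for Lama4, -0.24 to 0.0077 for Pdgfrb, -0.35 to 0.091 for Rgs5, -0.32 to 0.16 for Abcc9, -0.33 to 0.20 for Vtn, -0.057 to 0.34 for Ptgds and -0.32 to 0.20 for Slc6a13.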

Other observations

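Markers of cells that travel in or beside vessels were read in the same fit. Of 5 genes of red blood cells, 3 were tested and 0 called, and their summed level was 13.2 to 27.8 CPM in 4-AP and 12.9 to 23.1 CPM in control libraries. Of 8 genes of perivascular macrophages and microglia, 4 were tested and 0 called by edgeR's test. Of these 4, 2 (50%) had an unadjusted p under 0.05, beside 13.9% of all tested genes. The summed level of the 8 genes was 409 to 496 CPM in 4-AP libraries, against 315 to 386 CPM in controls, without overlap. Most of that sum was 1 gene, the microglial chemokine receptor Cx3cr1. Its mean was 374 CPM in 4-AP and 252 CPM in control libraries (adjusted p 0.0593 by edgeR's test). On the log2 scale Csf1r lay at -0.02, Tmem119 at -0.42 and the microglial gene P2ry12 at 1.47 (SE 0.56). P2ry12 had an unadjusted p of 0.0160 by edgeR's test, and its groups overlapped. It had 7, 36 and 7 counts in 4-AP libraries, against 7, 19 and 2 in controls. The macrophage genes Mrc1, with a mean of 3.77 CPM in 4-AP and 3.76 CPM in control libraries, and Lyve1, at 0 counts in every 4-AP library and 1 to 3 in the controls, were too sparse to test.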
